A study of Caenorhabditis elegans with 17 samples.

Results

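Ubiquinone, or coenzyme Q, is the lipid that carries electrons from complexes I and II of the respiratory chain to complex III. Its synthesis in mitochondria joins a long isoprenoid tail to an aromatic ring and then modifies the ring by hydroxylation, methylation and decarboxylation. The enzymes are encoded in the nucleus and imported into mitochondria. The genes described here are the 8 rows of the gene table named *coq-1*, *coq-2*, *coq-3*, *coq-4*, *coq-5*, *coq-6*, *coq-8* and *clk-1*, out of 21459 genes in the table. They were chosen by name.

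The study sequenced RNA of oocytes cut from the gonad arm of single wild-type *C. elegans* mothers, with some gonadal sheath attached to the cells. The exposed mothers were moved as L4 larvae to medium with 300 mM NaCl and dissected on day 1 of adulthood (8 libraries). The control mothers spent the same period on control NGM, the standard nematode growth medium (9 libraries). This medium is not free of salt, and the paper gives it a lower NaCl concentration. In each group the labels give 3 replicate numbers with lettered libraries within a number, and they do not say what libraries of the same number share. Both groups were wild-type, and animals of both were paralysed with tetramisole for the dissection. The libraries were made from total RNA with a stranded low-input kit. The table holds a single level for each gene, the mean normalized count, which is a read count divided by a scaling factor for each library and then averaged by the authors over the libraries of their comparison. Which of the 17 libraries entered this mean is not given in the sources used here, and the supplement speaks of 3 replicates for each condition. The levels reported here therefore pool exposed and control mothers, over a number of libraries that is not known. They carry no SD and no library's depth is known. Whether any of the 8 transcripts differed between the 300 mM NaCl and control groups was not analysed here.

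The tissue label was checked against marker genes. All 8 oocyte markers on a list that included *oma-1*, *rme-2* and *puf-5* lay between percentiles 97.9 and 99.4 of the ranked genes defined in the next paragraph. The 4 sheath markers found, of 5 listed, were mixed. *ceh-18* lay at percentile 24.8, *lim-7* at 47.7 and *mup-2* at 76.1. The highest was *inx-8*, a gap junction subunit of the gonadal sheath, at percentile 98.4. All 5 intestine markers and all 5 sperm markers listed lay under the lowest ubiquinone gene. A gene outside the list, *msd-4*, is named for a major sperm protein domain and lies nearest to *coq-8* on the opposite strand. It lay above the lowest ubiquinone gene, at 201 normalized counts per kb. The 3 body wall muscle markers ranged from 48.4 to 268 normalized counts per kb, the 3 neuron markers from 22.6 to 726 (*snb-1*) and the 3 hypodermis markers from 1.02 to 11.1. In such bulk RNA, fewer cells of a type and less RNA per cell cannot be told apart, and the share of each ubiquinone transcript that came from sheath was not tested.

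All 8 ubiquinone genes were detected, each with a mean normalized count above 10. No row carried the names *coq-7*, under which *clk-1* is known in other species, *coq-9* or *coq-10*, and *coq-9* and *coq-10* were not analysed here. To compare genes, each mean was divided by the length of the gene's merged annotated exons, which gave a level in normalized counts per kb. Percentiles place this level among 10562 protein-coding genes with a mean of at least 10. On this scale the 8 genes lay close together. Their levels ran from 104 for *coq-4* to 319 for *coq-8*, a range of 3.08-fold, with a median of 233. The ranked genes had a median of 146, and their quartiles were 29.3 and 373. Of the 8 genes, 6 lay above this median, 2 lay below it and 0 lay above the upper quartile. The median of the 8 percentiles was 60.2, near the middle of this ranking. The position depends on the genes ranked: among protein-coding genes with a mean of at least 100, the median percentile was 35.1 and 1 of the 8 genes lay above the median. *coq-4*, with a mean of 78.0, falls under this minimum but was still placed among these genes and counted in the median percentile.

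**Figure D1:**
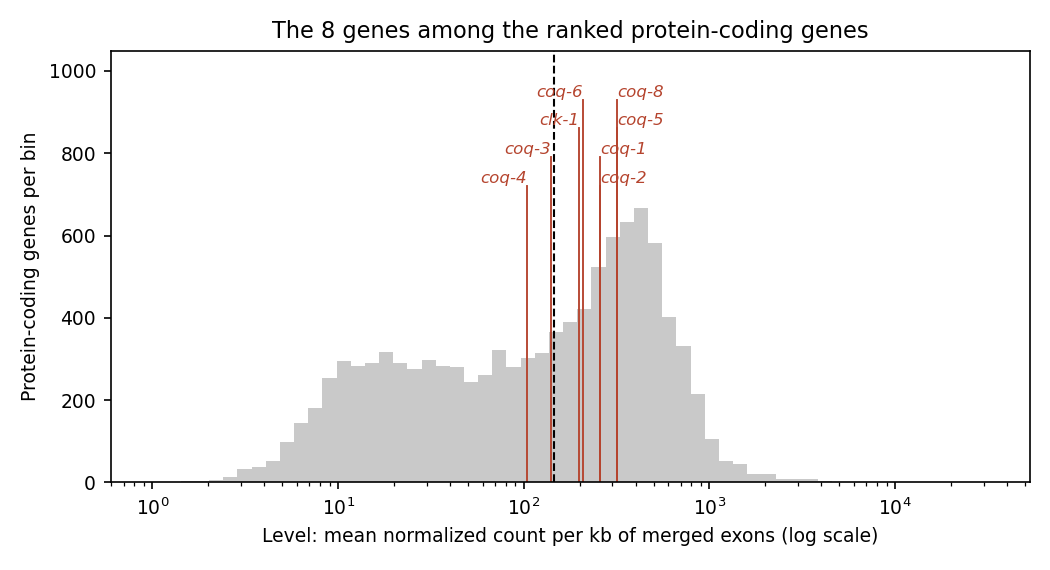
Histogram of the level of 10562 ranked protein-coding genes (x axis, mean normalized count per kb of merged exons, log scale; y axis, genes per bin), with a red line for each ubiquinone synthesis gene and a dashed line at the median of 146. The 8 red lines fall between 104 and 319, all under the upper quartile of 373.

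The tail and its attachment depend on *coq-1* and *coq-2*. *coq-1* encodes a polyprenyl diphosphate synthase subunit, which builds the isoprenoid tail. It lies on the reverse strand of chromosome I from 5412841 to 5415629 in WBcel235, with 11 merged exons in a single annotated transcript. Its mean normalized count was 404, or 259 per kb, at percentile 63.1. *coq-2* encodes the prenyltransferase that joins the tail to the ring. It lies on the forward strand of chromosome III from 6935967 to 6939457, with 9 merged exons and 2 annotated transcripts. Its mean normalized count was 358, or 259 per kb, also at percentile 63.1. The ratio of the *coq-1* level to the *coq-2* level was 1.00. The genes for making the tail and for attaching it thus had like pooled levels per kb of merged exons, although the raw mean of *coq-1* was the higher. The match depended on the length used. With coding length *coq-1* had 343 and *coq-2* 288, and with the longest transcript *coq-1* had 259 and *coq-2* 286.

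The ring is modified by the products of *coq-6*, *coq-3*, *coq-5* and *clk-1*. *coq-6* encodes a flavin-dependent monooxygenase that hydroxylates the ring. It lies on the forward strand of chromosome V from 9336762 to 9338858 and has 8 exons in its single transcript. It had a mean normalized count of 284 and a level of 207 per kb, at percentile 57.4. *coq-3*, the O-methyltransferase of the pathway, lies on the reverse strand of chromosome IV from 14793104 to 14796324. Its 3 annotated transcripts share 5 merged exons, and exons make up 28.3% of the gene, the smallest share among the 8. *coq-3* had a mean of 128 and a level of 140 per kb, at percentile 49.3, just under the middle of the ranked genes. *coq-5*, the C-methyltransferase, is on chromosome III from 7857315 to 7858457 (reverse strand) and is compact, with 3 exons that make up 84.7% of the gene. Its mean was 308 and its level was 318 per kb, at percentile 69.4. *clk-1* encodes the hydroxylase of the step before the last methylation, and its loss in worms is known for slow development and long life. It lies on the forward strand of chromosome III from 5277894 to 5279344, with 5 exons. Its mean was 147 and its level was 198 per kb, at percentile 56.4. Among these 4 ring enzymes the C-methyltransferase gene *coq-5* had the highest level and the O-methyltransferase gene *coq-3* the lowest, and the levels of the hydroxylase genes *coq-6* and *clk-1* differed by a factor of 1.05.

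The remaining genes are *coq-4* and *coq-8*, which stood at opposite ends of the range. *coq-4* encodes a protein that the yeast pathway needs for assembly of the synthesis complex. It lies on the forward strand of chromosome I from 3869214 to 3870114 and has 4 exons. With a mean of 78.0 and a level of 104 per kb, at percentile 44.0, it was the lowest of the 8 genes on both scales. *coq-8* encodes an atypical kinase of the ADCK family, which in yeast is required for the complex to be stable. It lies on the forward strand of chromosome III from 4863427 to 4866948, with 7 exons. Its mean of 754 made up 30.6% of the summed means of all 8 genes, and its level of 319 per kb, at percentile 69.5, was the highest. The 2 genes differ in length: *coq-8* has 2365 exonic bases and *coq-4* has 753. Whether counts rise with exon length in these libraries was not tested. The means differed by 9.67-fold and the levels per kb by 3.08-fold.

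Ordered by level per kb, the genes ran *coq-4*, *coq-3*, *clk-1*, *coq-6*, *coq-2*, *coq-1*, *coq-5* and *coq-8*. The step from *coq-3* to *clk-1* was the widest between neighbours in this order, at 1.42-fold, followed by 1.35-fold between *coq-4* and *coq-3*. The steps from *clk-1* to *coq-6*, from *coq-2* to *coq-1* and from *coq-5* to *coq-8* were 1.05-fold, 1.00-fold and 1.00-fold. The order within each of these close sets is not established, because the pooled means have no replicate error. It also depended on the length used. With coding length in place of all exonic bases, *clk-1* (261) stood above *coq-6* (210), and *coq-5* (360) and *coq-1* (343) stood above *coq-8* (333). The exonic bases outside the coding sequence, stop codon included, number 383 for *coq-1*, 179 for *clk-1* and 18 for *coq-6*. *coq-4* and *coq-3* were the lowest under either length.

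**Figure D2:**
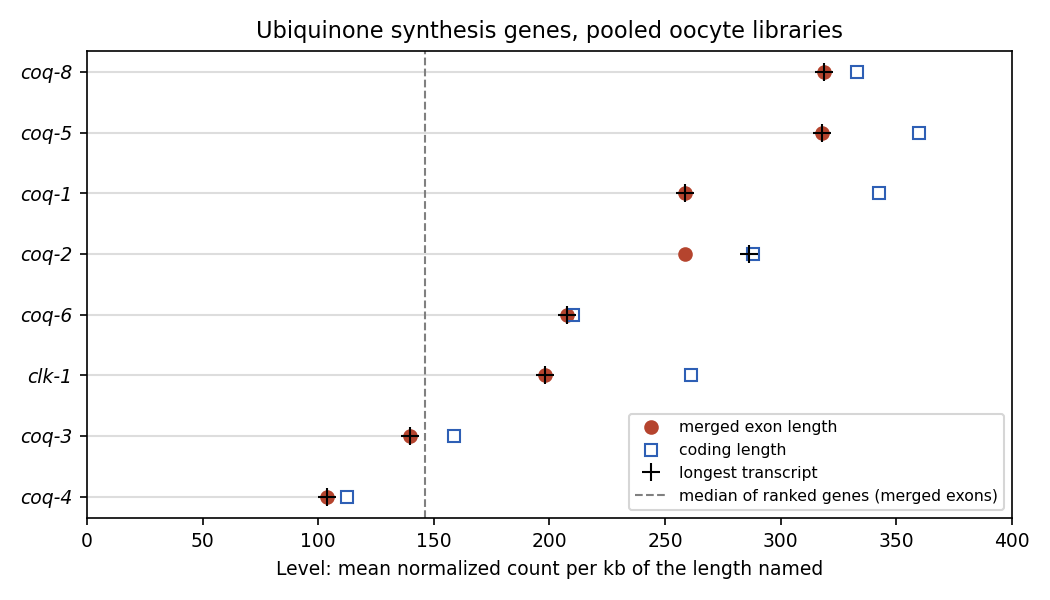
Level of each ubiquinone synthesis gene (x axis, mean normalized count per kb) with merged exon length (red circles), coding length (blue squares) and the longest transcript (black crosses), and the median of the ranked genes, 146, as a dashed line. *coq-4* is lowest at 104 and 113 per kb with exon and coding length, and the squares of *coq-1*, *coq-5* and *clk-1* lie well to the right of their circles.

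The genes that supply the tail had levels in the same range or above it. Of 5 enzymes that make isoprenoid precursors, all 5 were found, with a median level of 358 per kb, 1.54 times the median of the ubiquinone genes. *idi-1*, the isopentenyl diphosphate isomerase, had 435 per kb, *mvk-1*, the mevalonate kinase, had 364 and *fdps-1*, the farnesyl diphosphate synthase, had 358. *hmgr-1*, the HMG-CoA reductase, had 313. *hmgs-1*, the HMG-CoA synthase of the preceding step, was the exception at 105 per kb, close to *coq-4*.

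Genes of aromatic amino acid breakdown had far lower levels. *tatn-1*, tyrosine aminotransferase, and *hpd-1*, hydroxyphenylpyruvate dioxygenase, act in tyrosine breakdown, and their levels were 2.16 and 11.2 per kb. The kynurenine pathway breaks down tryptophan and in *C. elegans* supplies the ring of rhodoquinone, a relative of ubiquinone used when oxygen is scarce. The 5 genes listed from this pathway, *tdo-2*, *afmd-1*, *kmo-1*, *kynu-1* and *haao-1*, had levels from 1.13 to 10.3 per kb. Other genes of the pathway were not looked up. All 5 lay below the lowest ubiquinone gene, and their median of 3.76 was 0.0161 times the median of the ubiquinone genes. Of these 5, only *kmo-1*, the kynurenine monooxygenase, reached the mean normalized count of 10 needed to be ranked.

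Transcripts for subunits of the respiratory complexes that use ubiquinone mostly had higher levels than the ubiquinone genes. A list of 12 subunits of complexes I, II and III, which reduce ubiquinone or oxidize its reduced form, had a median level of 575 per kb, 2.47 times that of the ubiquinone genes. Of these 12, 10 lay above *coq-8*, the highest ubiquinone gene. *nuo-1*, the complex I subunit that binds NADH, had 1201 per kb, *isp-1*, the iron-sulfur protein of complex III, had 796 and *mev-1*, the cytochrome b subunit of complex II, had 655. The exceptions, *gas-1* at 269 and *sdha-1* at 186, are X-linked. The dehydrogenases that feed ubiquinone from other pathways spread more widely. *let-721*, which passes electrons from fatty acid oxidation, had 495 per kb, and *dhod-1*, the dihydroorotate dehydrogenase of pyrimidine synthesis, had 372. *prdh-1*, the proline dehydrogenase, had 116 and *sqrd-1*, a sulfide quinone oxidoreductase, had 66.8. The fifth gene listed, *sqrd-2*, had no row of that name. The median of these 4 was 244, which is 1.05 times that of the ubiquinone genes.

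**Figure D3:**
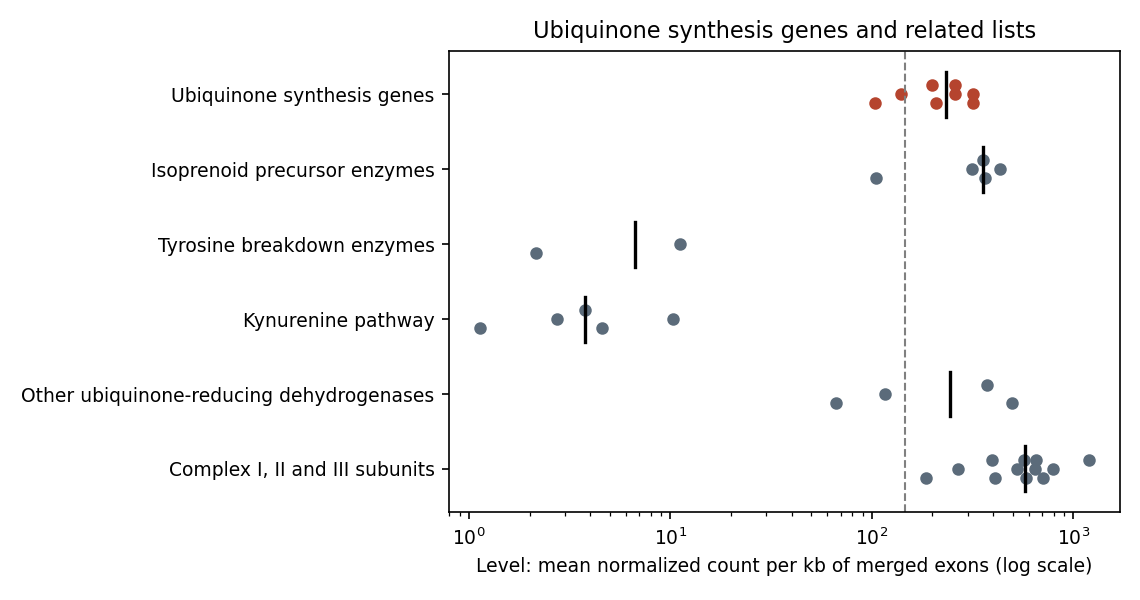
Level of each gene (points; x axis, mean normalized count per kb of merged exons, log scale) in the ubiquinone synthesis genes and 5 related lists, with a black bar at each list's median and a dashed line at the median of ranked genes, 146. The ubiquinone genes centre on 233, the complex I, II and III subunits on 575 and the kynurenine pathway on 3.76.

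None of the 8 ubiquinone genes is X-linked, and 4 of them lie on chromosome III. Among the ranked genes, 12.4% are on X and 18.2% on chromosome III. Ranked X-linked genes had a median level of 69.6 per kb, against 169 for autosomal genes and 204 for those on chromosome III. Low X-linked expression is known from the worm germline, but its part in these levels, from oocytes with some sheath, was not tested.

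Most of the 8 genes lay close behind another gene. Many *C. elegans* genes lie in operons, in which neighbouring genes on the same strand are transcribed together and separated by a short gap. The annotation used here does not mark operons, so the distance to the nearest protein-coding gene upstream on the same strand was measured. For 6 of the 8 genes this gap was at most 200 bases, a limit chosen after the gaps were seen. The same held for 1367 of the 10562 ranked genes (12.9%). At a limit of 100 bases the counts were 4 of 8 and 616 of 10562 (5.83%). At limits of 500 and 1000 bases, 6 of the 8 genes still qualified, against 21.0% and 29.5% of the ranked genes. The gap was 0 bases between *C35D10.5* and *coq-8*, 90 between *ucp-4* and *coq-6*, 91 between *toc-1* and *clk-1* and 94 between *nuo-3* and *coq-3*. It was 104 bases both between *pgk-1* and *coq-4* and between *byn-1* and *coq-2*. Some of these neighbours also act in mitochondria: *ucp-4* encodes a mitochondrial carrier of the uncoupling protein family and *nuo-3* a subunit of complex I. Others act elsewhere, such as *pgk-1*, the glycolytic phosphoglycerate kinase. *coq-1* and *coq-5* had wider upstream gaps, of 1023 bases to *erp-44.1* and 2008 bases to *cuc-1*, but *coq-5* was followed by *tag-307* after 72 bases.

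**Figure D4:**
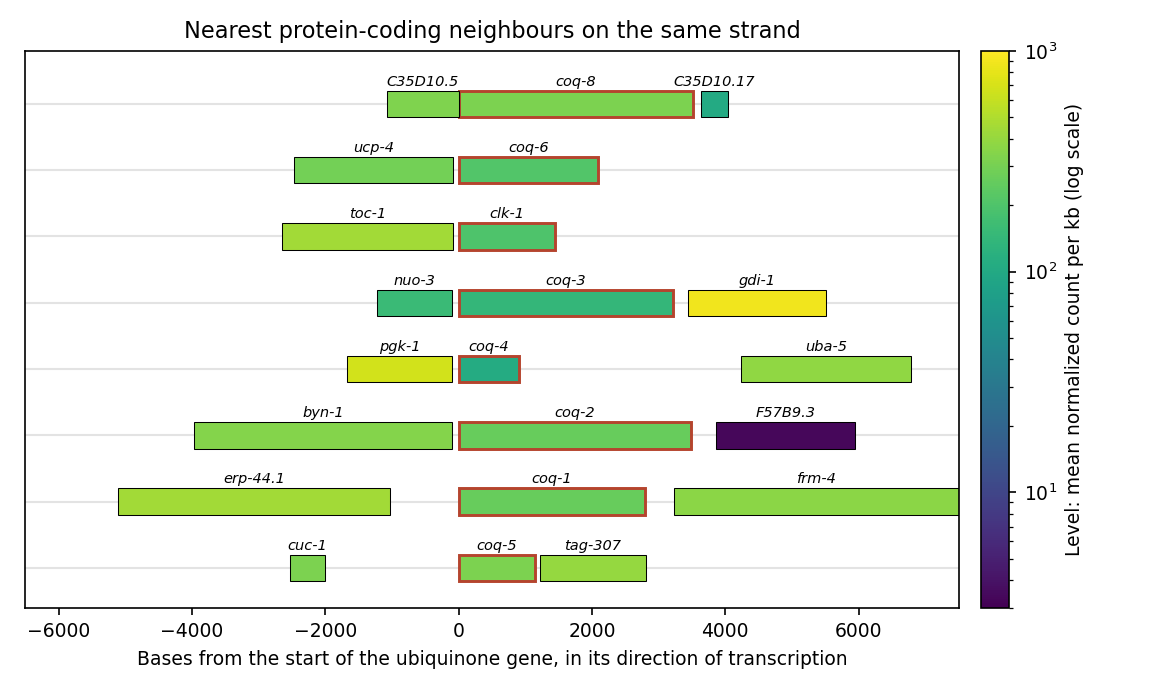
The 8 ubiquinone genes (red outline) and their nearest protein-coding neighbours on the same strand, with the fill giving the level per kb on a log scale. Genes are drawn to scale by distance in bases from the start of the ubiquinone gene in its direction of transcription. *frm-4*, downstream of *coq-1*, runs past the edge. The downstream neighbours of *coq-6* (*try-5*) and *clk-1* (*T15B12.1*) lie beyond the edge and are not drawn. Rows are ordered by the upstream gap, from 0 bases for *coq-8* at the top to 2008 bases for *coq-5* at the bottom.

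Each of the 6 closely spaced ubiquinone genes had a lower pooled level than the gene upstream of it. The genes with wider gaps did too. *coq-1* had 259 per kb against 451 for *erp-44.1*, and *coq-5* had 318 against 321 for *cuc-1*. Widely spaced ranked genes were not measured in this way, so whether the direction depends on spacing was not tested. Small differences are not established, because the pooled means have no replicate error. *coq-8* had 319 per kb against 327 for *C35D10.5*, and *coq-3* had 140 against 155 for *nuo-3*. *coq-2* had 259 against 339 for *byn-1*, and *coq-6* had 207 against 289 for *ucp-4*. The wider differences were those of *clk-1*, with 198 against 442 for *toc-1*, and *coq-4*, with 104 against 675 for *pgk-1*. The median ratio over the 6 was 0.741. A lower downstream gene was also the more common case among close sets whose downstream gene was ranked. It held in 819 of 1350 (60.7%), with a median ratio of 0.782. The upstream gene of these sets did not have to be ranked. Sets with a very low downstream gene were thus left out, while those with a very low upstream gene were kept. In the close sets where the ubiquinone gene came first, *coq-5* had 318 per kb against 401 for *tag-307*, the downstream gene being higher, and *coq-8* had 319 against 101 for *C35D10.17*, which follows after 113 bases. The gene that follows *coq-3* after 216 bases, *gdi-1*, a regulator of Rab GTPases, reached 889 per kb.

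None of the 8 genes overlaps another annotated gene on either strand. *coq-6* ends where *tos-1* on the opposite strand ends, with 0 bases between them, and *tos-1* had a mean normalized count of 293. *coq-8* begins directly after *C35D10.5*. Whether the counting used strand is not given in the sources used here, and how far reads near these shared boundaries were assigned to the neighbour was not tested.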

How the data were processed

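Oocyte RNA of 17 libraries (8 from 300 mM NaCl, 9 control), lettered within 3 replicate numbers a group, was sequenced. The authors used STARsolo for alignment to WBcel235 and counting, left out genes with few reads over all samples, and ran DESeq2. The submitters' processing notes name STAR and kallisto, and versions are not given in the sources used here. The deposited table holds, per gene, the mean normalized count, a signal that the authors averaged over the libraries entered. Its other columns hold the authors' own comparison of the groups (log2 fold change, standard error, Wald statistic and p-values). They were not used, and without values of single libraries no test between groups was possible.

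The mean was divided by exon length from Ensembl release 115 of WBcel235, which held 21399 of the 21459 identifiers, and ranked among protein-coding genes with a mean of at least 10. Other lengths and ranking sets were alternatives. Genes were named by fixed lists, plus the nearest same-strand neighbours. The genes and lists were chosen with earlier results of these data known. No sequences were used. Ranking and gap measurement were tested on simulated data. Python 3.11.15, numpy 2.4.6, pandas 2.3.3 and matplotlib 3.10.9 were used.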

Additional observations from a re-analysis of the deposited data

How the results depend on the processing

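The median percentile of the 8 ubiquinone genes, 60.2, was 59.0 with coding length, 59.9 with the longest transcript and 58.5 with no division by length. It was 79.1 among all genes of the table and 35.1 among protein-coding genes with a mean of at least 100. Ranking all genes adds low genes and the minimum of 100 removes them, and with that minimum 1 of the 8 genes lay above the median. The 8 include *coq-4*, whose own mean of 78.0 is under that minimum. *coq-4* was the lowest gene under each of these settings, and the highest was *coq-8*, except with coding length, where it was *coq-5*. No paired analysis was possible because the table has no column for any replicate. For the same reason alternatives that need counts of single libraries were not run: another count test, another filter, a replicate block and leaving out each library. What depth limits could not be measured.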

Other observations

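A few genes beside the ubiquinone genes had levels far from theirs, and were picked out after their values were seen. *try-5*, named for a trypsin-like protease that is known from male seminal fluid in *C. elegans*, is the next protein-coding gene downstream of *coq-6* on its strand, 8185 bases away. In the pooled oocyte libraries *coq-6* had 207 normalized counts per kb, against 933 for *try-5*, which lay at percentile 97.3. *coq-2* had 259 per kb, against 3.30 for *F57B9.3*, which follows it after 365 bases on the same strand.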
